A study of Mus musculus with 8 samples.

Results

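The glutamate and GABA receptor subunit genes were taken by symbol, as Gria, Grik and Grid genes with a number (AMPA, kainate and delta receptor subunits), Grin genes (NMDA receptor subunits), Grm genes with a number (metabotropic glutamate receptors), Gabra, Gabrb and Gabrg genes with a number plus Gabrd and Gabre (GABA-A receptor subunits), and Gabbr1 and Gabbr2 (GABA-B receptor subunits). The rule used no measured value. It found 42 of the 17836 genes in the count table of one cell sort, called D1Tom, and 39 of the 15769 genes in the table of another, called GTE. Gabra6, Grin3b and Grm6 are no rows of the GTE table, and the other 39 genes are in both tables.

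Single cells of the frontal isocortex of mice at P7, postnatal day 7, were sorted for tdTomato from a Drd1a BAC transgene, which reports the dopamine D1 receptor gene (D1Tom), or for golli-τ-eGFP, a green reporter driven by a promoter of the myelin basic protein locus (GTE). All mice carried both floxed Foxp2 alleles on lines backcrossed to C57BL/6J. Controls had no Cre, and Foxp2 cKO littermates also carried Emx1-Cre, which acts in the lineage of cortical excitatory neurons and part of the glia but not in cortical interneurons. Each sort had 2 control and 2 cKO libraries, and the labels do not say how many animals a library holds, so p-values measure the spread between libraries, part of which may be technical. In the D1Tom sort both controls and cKO 1 were female and cKO 2 was male, and the libraries numbered 1 were prepared on one day and those numbered 2 on another. In the GTE sort both controls and cKO 1 were labelled male and cKO 2 female. The slices were kept and digested with DL-AP5, DNQX and tetrodotoxin, which block NMDA receptors, AMPA and kainate receptors, and sodium channels.

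Glutamate excites cortical neurons through AMPA, kainate and NMDA receptors, cation channels put together from several subunits, and modulates them through metabotropic receptors coupled to G proteins. GABA opens GABA-A receptors, chloride channels that usually join alpha and beta subunits with a gamma or a delta subunit, and acts more slowly through GABA-B receptors, which need both of their subunits. The choice of subunit sets how long a channel stays open, whether it passes calcium and where in the membrane it sits. In the rodent cortex the first postnatal weeks bring an exchange of the NMDA receptor subunit GluN2B for GluN2A and changes in GABA-A subunits.

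The D1Tom libraries held 2395 to 3206 cells and 27323298 to 36379194 counts, of which 0.264% to 0.358% fell on the receptor genes. GTE libraries were shallower, with 1440 to 3948 cells, 4878370 to 6092396 counts and 0.108% to 0.339% on these genes. Cells were clustered without the receptor genes and named from marker lists that hold none of them, so the levels below took no part in the naming. In D1Tom 19 of 22 clusters, with 81.7% of cells, could be named, and in GTE 9 of 13 clusters, with 47.9% of cells. The D1Tom cluster named layer 6 corticothalamic also had Ctgf and Cplx3, from the marker list of layer 6b or subplate, among its leading genes. No cluster was named layer 6b or subplate, so such cells may be part of the layer 6 corticothalamic-like class in all results below. Few GTE cells fell in clusters named neuron-like (between 6 and 85 in a library), against 675 to 1025 in each D1Tom library. An unnamed GTE cluster of 2470 cells had Neurod6, a marker on the excitatory lists, among its leading genes. It held 1069 and 627 control and 93 and 681 cKO cells, so neurons may be missing from the GTE numbers. The library GTE cKO 1 stood apart, with 517 of the 589 astrocyte-like cells of that sort and a median of 2982 counts per cell against 1086 to 1268 in the others. With finer clustering, an astrocyte-like GTE cluster held 36 and 54 control and 524 and 36 cKO cells. A further astrocyte-like cluster then held 55 and 204 control and 4 and 131 cKO cells. The astrocyte-like share of the other GTE libraries therefore depends on the clustering. Foxp2 read 260 and 216 CPM (counts per 1000000 counts of the class) in control layer 6 corticothalamic-like cells and 63.5 and 56.4 CPM in those of the cKO. Over all GTE cells, control libraries had 9.52 and 46.9 CPM of it and the cKO libraries had 25.4 and 7.43 CPM, so that the genotypes overlapped in that sort. In D1Tom control 1 and cKO 1 values of 2 outnumbered values of 1 among the counts of a gene in a cell (ratios 1.69 and 1.54), in control 2 and cKO 2 they did not (0.723 and 0.307), and in GTE the ratio ran from 0.923 to 1.35. Whether a count is 1 molecule in every library is therefore not known, and the bounds and the interval below, which take it as 1, may be too narrow. Some barcodes occurred in more than 1 library, 97 in D1Tom and 63 in GTE.

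Values for the 4 D1Tom libraries are given in the order control 1, control 2, cKO 1 and cKO 2. They are CPM of counts summed over the cells of a class, so fewer expressing cells and less RNA per cell cannot be told apart. CPM values of different genes were not compared, since the counting is not per length. Over 11 named D1Tom classes with at least 30 cells in every library, not counting the haemoglobin-rich cells, 41 of the 42 genes had a count in at least 1 class. The highest mean was in layer 5 pyramidal tract-like neurons for 13 genes, among them Grin1, Grin2b, Gria2, Grm5 and Gabra5. It lay in medial interneuron-like cells for 6 genes, among them Gabra3, Gria1, Grik1, Grin3a and Grm4. Lamp5-led interneuron-like cells held the highest mean of 5 genes (Gabbr2, Gabrb2, Gabrd, Gria4 and Grin2a), and astrocyte-like cells that of 5 others (Gabbr1, Gabre, Gabrg1, Grin2c and Grm3). The place of Grin2c rests on cKO 1, since its astrocyte-like counts were 4, 0, 25 and 1 in the 4 libraries. Neuroblast-like cells, with too few control cells to be among the 11 classes, held 20 and 11 Grin2c counts in the cKO libraries. Layer 6 corticothalamic-like cells led for Grik3, Grik4 and Grm8, oligodendrocyte precursor-like cells for Gria3 and Grid1 among others, caudal interneuron-like cells for Gabra2 and Grin2d, other excitatory-like cells for Gabrb1 and Grm2, and upper layer-like cells for Gabra4 and Grin3b. Over all D1Tom cells Grin3b read at most 0.22 CPM in a library, so its leading class rests on very few counts. For 13 genes the libraries of the leading class did not overlap those of the class next in order, and for the other 28 they did. The same share over all genes was not computed, so this count is a description and no result about the receptor genes.

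**Figure D1:**
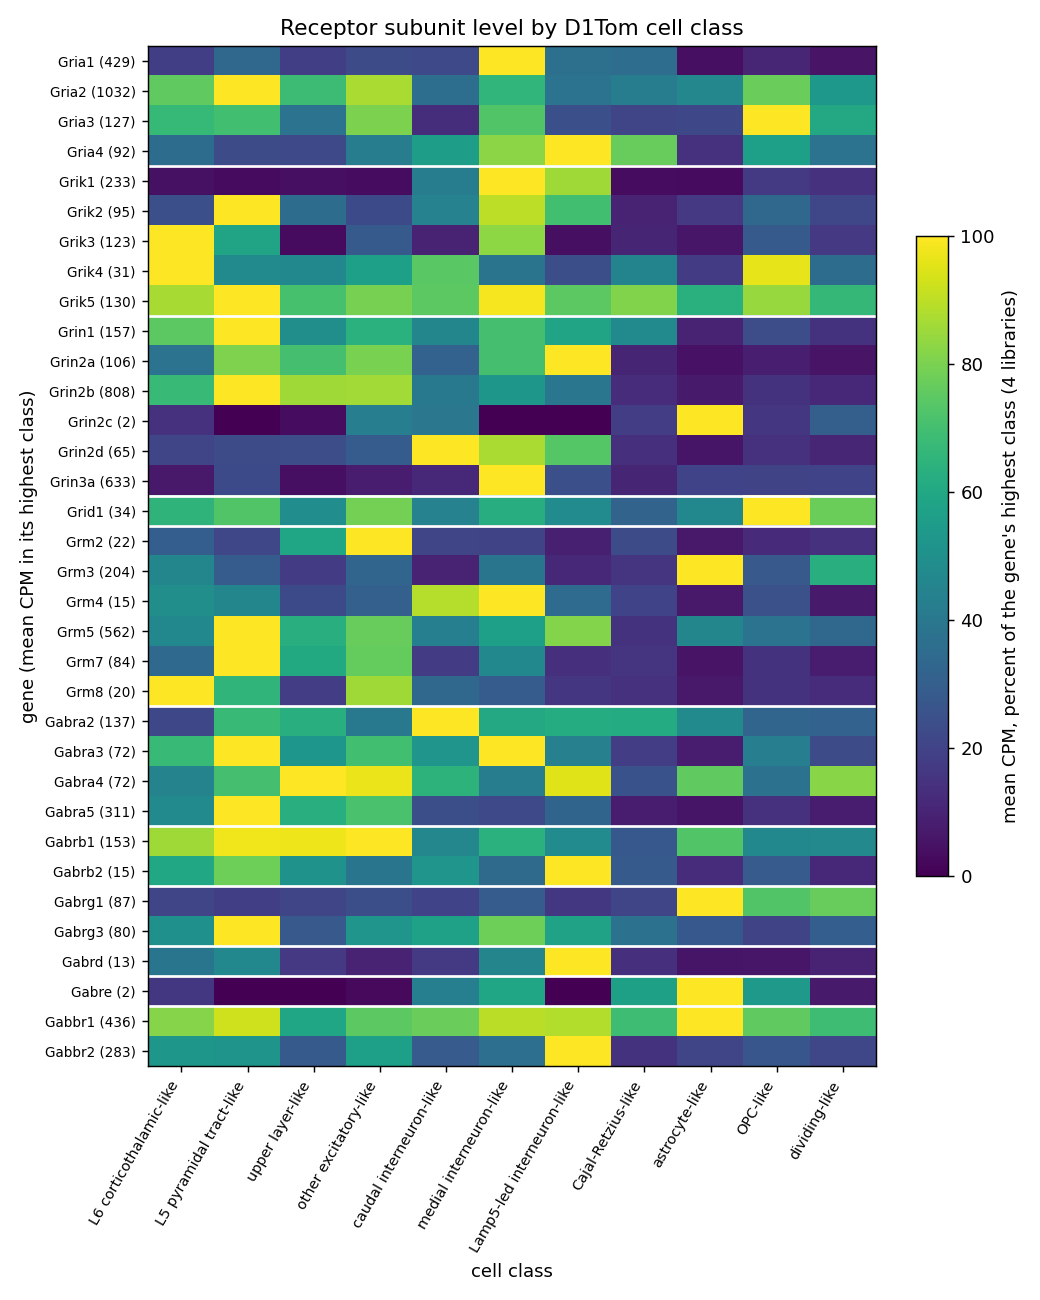
Heat map of 34 receptor subunit genes (rows, grouped by family, with the mean CPM in the highest class in brackets) in 11 D1Tom cell classes (columns); colour gives the mean of 4 libraries as a percent of the gene's highest class, and 3 genes under 1 CPM in every class are among those left out. Grin2b, Grm5 and Gabra5 peak in layer 5 pyramidal tract-like cells, while Gabrg1, Grm3 and Gabre peak in astrocyte-like cells.

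All receptor genes together took 5785 ± 374 CPM of the counts of layer 5 pyramidal tract-like cells (mean ± SD, n = 4 libraries, as below) and 5017 ± 308 CPM in medial interneuron-like cells. All excitatory neuron-like classes joined gave 4448 ± 186 CPM and all interneuron-like classes 3803 ± 74.7 CPM. Oligodendrocyte precursor-like cells gave 2884 ± 204 CPM, astrocyte-like cells 2338 ± 241 CPM and Cajal-Retzius-like cells, early neurons of the cortical surface, 2052 ± 561 CPM. The sum was highest, at 7339 ± 1132 CPM, in an unnamed cluster of 1080 cells led by Pfkp, Tmem132a and Ptprk, whose median of 3121 counts per cell was 0.39 times that of its own libraries. Endothelial-like cells, which line vessels and should lack most of these receptors, gave 448 ± 173 CPM, with as few as 17 cells in a library. Microglia-like cells, the resident immune cells, which should lack most of them too, gave 1442 ± 808 CPM, from 608 to 2547 CPM, with as few as 19 cells in a library. Median counts per cell were 19576 in endothelial-like and 10335 in microglia-like cells. RNA from other cells can give such counts in droplets, so levels near those of either class were read as background. Gria2 read 75.7 ± 27.6 CPM in endothelial-like and 277 ± 181 CPM in microglia-like cells, Grin2b 29.3 ± 20.0 and 123 ± 126 CPM. Among genes called higher in glia, Gabrg1 reached 39.6 CPM, Grm3 58.0 CPM, Grin3a 65.7 CPM and Grik1 11.6 CPM in the highest microglia-like or endothelial-like library, below every library of the glial class where each was called. Gabre, also called higher in astrocyte-like cells but from few counts, is not part of this comparison.

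Between cell classes, 5 contrasts were fitted over all genes with edgeR's quasi-likelihood test on counts summed per library and class, with the library as a block, in D1Tom libraries of both genotypes (n = 4 libraries). A gene was called higher or lower at a Benjamini-Hochberg adjusted p under 0.05 and an absolute log2 fold change of at least 1. Interneuron-like against excitatory neuron-like cells gave 7 higher and 4 lower calls among 37 receptor genes tested, 29.7% in all, against 10.6% of 12213 genes (4.13% higher and 6.42% lower). The astrocyte-like contrast called 4 of 38 receptor genes higher and 23 lower, 71.1% in all, against 40.2% of 12944 genes (19.5% higher and 20.7% lower). Oligodendrocyte precursor-like cells differed from excitatory neuron-like cells in 3 higher and 16 lower receptor genes of 37, 51.4% in all, against 25.4% of 12438 genes (13.7% higher and 11.8% lower). Cajal-Retzius-like cells had 1 higher and 19 lower of 36, 55.6% in all, against 19.3% of 12008 genes (8.84% higher and 10.5% lower). Layer 6 corticothalamic-like against upper layer-like cells had 6 higher and 3 lower of 37, 24.3% in all, against 9.78% of 11216 genes (6.21% higher and 3.58% lower). The median log2 fold change of the receptor genes was -0.17, -1.63, -0.83, -1.10 and 0.20 in these contrasts in turn, while the median of all genes tested lay between -0.01 and 0.00. Median counts per cell also differed between the classes, at 20710 in excitatory neuron-like, 9899 in interneuron-like, 7495 in astrocyte-like, 7537 in oligodendrocyte precursor-like and 15101 in Cajal-Retzius-like cells. The part of depth in the differences was not tested. Of 98 pairs of a named receptor gene and a class contrast, 74 kept their call under every alternative run, and the others that are named are given beside their values or here. With finer clustering the calls of Gria1, Grm4 and Grm8 in interneuron-like, Gria4 in astrocyte-like, Grm3 in Cajal-Retzius-like, and Gabra4 and Grik4 in layer 6 corticothalamic-like cells were lost. With the control libraries alone, an alternative chosen after seeing the data, 6 Cajal-Retzius-like calls were lost (among them Gabra3, Grik3, Grm2, Grm3 and Grm8), with Grm4 in interneuron-like, Gabrd in oligodendrocyte precursor-like, and Grm2 in layer 6 corticothalamic-like cells. Without the library as a block Grm3 was lost in Cajal-Retzius-like cells, and Grik4 and Grm2 in layer 6 corticothalamic-like cells.

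**Figure D2:**
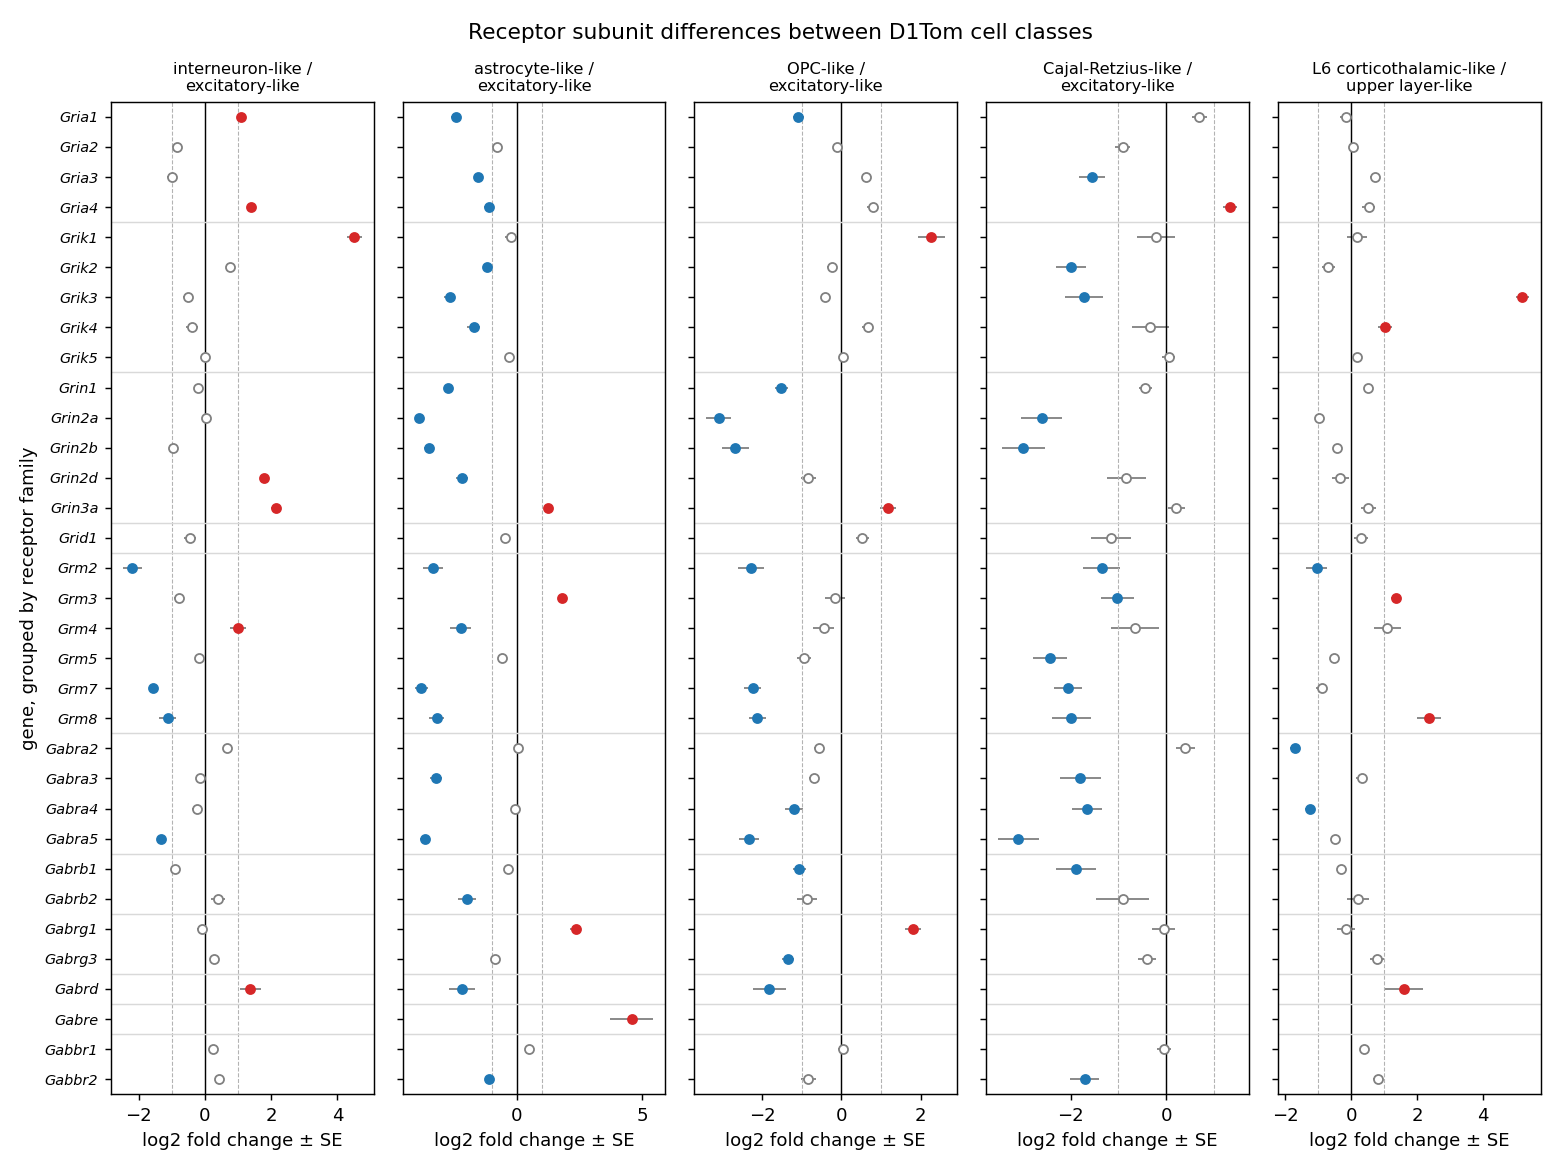
Log2 fold change ± SE (x axis) of receptor genes tested (y axis, grouped by family) in 5 contrasts of D1Tom cell classes, from edgeR fits over 4 libraries; red points were called higher, blue points lower, and open points were not called, with dashed lines at a log2 fold change of 1 either way. Most points of the astrocyte-like contrast lie left of 0 (19 of 33 drawn called lower), with Gabre (from 3 excitatory neuron-like counts), Gabrg1, Grm3 and Grin3a called higher on the right.

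AMPA receptors, which carry most fast excitation, are made of the subunits GluA1 to GluA4 (Gria1 to Gria4), and GluA2 is the one that keeps calcium out. Interneuron-like cells had more Gria1 and Gria4 than excitatory neuron-like cells, and astrocyte-like cells had less Gria1, Gria3 and Gria4. Gria1 read 243, 177, 246 and 147 CPM in interneuron-like and 95.1, 90.8, 111 and 97.1 CPM in excitatory neuron-like cells, a log2 fold change of 1.08 (SE 0.10, adjusted p = 4.89e-06). Gria4, which gives fast channels, read 82.3, 73.6, 78.9 and 67.3 CPM in interneuron-like and 30.3, 29.4, 27.6 and 31.0 CPM in excitatory neuron-like cells, a log2 fold change of 1.41 (SE 0.10, adjusted p = 5.07e-07). In both genes every interneuron-like library lay above every excitatory one. Gria2 read 416, 456, 480.2 and 493 CPM in interneuron-like cells and 861, 793, 926 and 832 CPM in excitatory neuron-like cells. Its libraries did not overlap, but the log2 fold change of -0.85 did not reach the fold set for a call. Without control 1 the Gria1 difference was 0.99, just under that fold. Within the interneuron-like classes, Gria1 was spread widely, from 95.5 ± 19.4 CPM in caudal to 429 ± 209 CPM in medial interneuron-like cells, where single libraries ran from 216 to 677 CPM.

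In astrocyte-like cells Gria1 was low and Gria2 closer to its level in excitatory neuron-like cells. Gria1 read 9.51, 18.5, 26.3 and 18.6 CPM there, a log2 fold change of -2.44 (SE 0.20, adjusted p = 1.78e-05), with no overlap. Gria2 read 534, 400.0, 610.1 and 371 CPM, lower than every excitatory library but not called (log2 fold change -0.78). Its control 2 and cKO 2 values lay within the SD of the microglia-like mean given above, and the part of background in the astrocyte-like level was not tested. Gria3 and Gria4 were also called lower in astrocyte-like cells (log2 fold changes -1.53 and -1.13), the latter at -0.98 without cKO 1. Oligodendrocyte precursor-like cells read 37.7, 46.4, 63.0 and 39.2 CPM for Gria1, a log2 fold change of -1.09 (SE 0.13, adjusted p = 6.22e-04), or -0.97 without control 1. Their Gria2 read 918, 721, 913 and 636 CPM, overlapping the excitatory range, and was not called (log2 fold change -0.10). Gria3 had its highest class mean there, 127 ± 26.5 CPM. In Cajal-Retzius-like cells Gria4 read 73.5, 70.0, 69.4 and 70.3 CPM, a log2 fold change of 1.33 (SE 0.15, adjusted p = 3.13e-04), the only receptor gene called higher in that class, and Gria3 was lower (log2 fold change -1.55). Gria1 at 205, 124, 146 and 139 CPM and Gria2 at 336, 549, 356 and 516 CPM were not called there (log2 fold changes 0.70 and -0.91), although Gria2 passed at -1.07 without control 2 and at -1.04 without cKO 2. No AMPA gene was called between layer 6 corticothalamic-like and upper layer-like cells.

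Kainate receptors, a further class of glutamate channels found on both sides of the synapse, form from GluK1 to GluK3 (Grik1 to Grik3), with Grik4 and Grik5 coding for subunits that need a partner. Grik1 had the largest log2 fold change of the receptor genes tested between interneuron-like and excitatory neuron-like cells. It read 210.1, 123, 221 and 147 CPM in interneuron-like and 3.93, 8.25, 11.5 and 9.10 CPM in excitatory neuron-like cells, a log2 fold change of 4.52 (SE 0.22, adjusted p = 4.73e-08). The lowest interneuron-like library stood far above the highest excitatory one. Within interneuron-like cells Grik1 read 256, 143, 354 and 177 CPM in medial, 242, 143, 241 and 172 CPM in Lamp5-led and 146, 63.3, 108 and 76.3 CPM in caudal cells, and the ranges of neighbouring classes overlapped. Grik1 was also called higher in oligodendrocyte precursor-like cells, at 59.4, 27.1, 46.4 and 24.0 CPM, a log2 fold change of 2.27 (SE 0.35, adjusted p = 0.00139). There both libraries numbered 1 lay above both numbered 2, and all of them above the excitatory ones.

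Grik3 was higher in layer 6 corticothalamic-like than in upper layer-like cells. It read 125, 131, 106 and 130.1 CPM in layer 6 corticothalamic-like and 3.38, 2.71, 2.15 and 5.72 CPM in upper layer-like cells, a log2 fold change of 5.20 (SE 0.20, adjusted p = 7.36e-13). The layer 6 corticothalamic-like range overlapped that of medial interneuron-like cells, next in order at 102 ± 6.38 CPM. Layer 5 pyramidal tract-like cells, also of the deep layers and not in this contrast, read 71.7 ± 17.4 CPM. In Lamp5-led and caudal interneuron-like cells Grik3 read 5.06 ± 3.11 and 11.6 ± 4.39 CPM. Grik4 read 33.7, 33.6, 31.3 and 23.6 CPM in layer 6 corticothalamic-like and 17.1, 12.1, 18.5 and 9.15 CPM in upper layer-like cells, a log2 fold change of 1.03 (SE 0.21, adjusted p = 9.48e-04). That call was lost without control 2 (0.89), without cKO 2 (0.998) and with finer clustering (0.30, adjusted p = 0.407). Grik2, Grik3 and Grik4 were lower in astrocyte-like cells (log2 fold changes -1.20, -2.68 and -1.72), and Grik2 and Grik3 in Cajal-Retzius-like cells (log2 fold changes -1.99 and -1.72). Grik5 was called in none of the 5 contrasts.

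**Figure D3:**
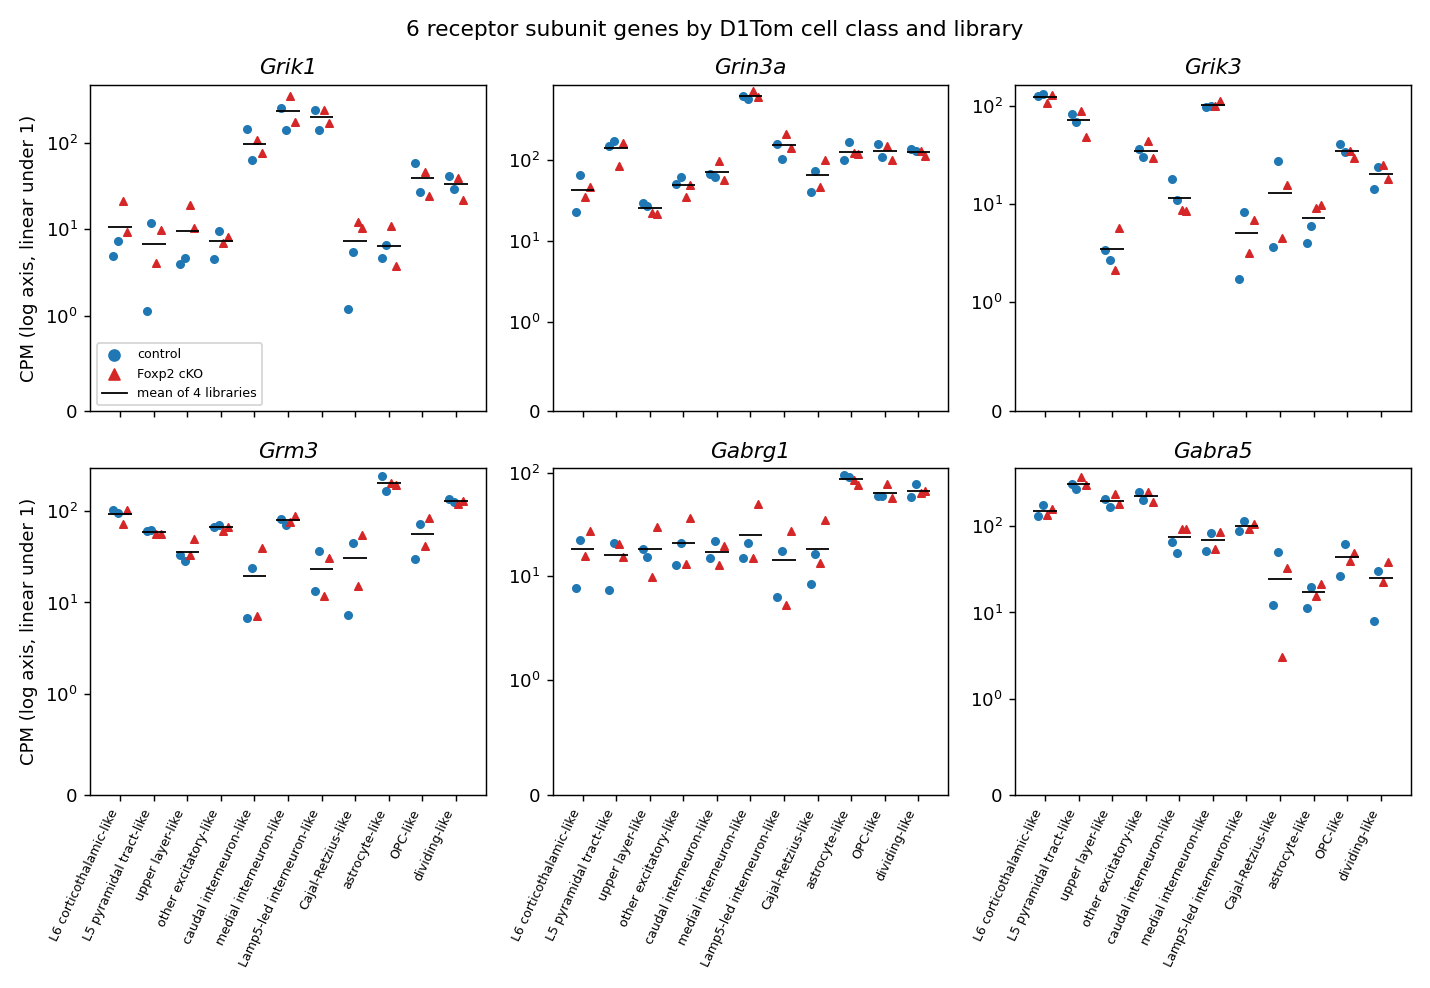
CPM (y axis, logarithmic above 1) of Grik1, Grin3a, Grik3, Grm3, Gabrg1 and Gabra5 in 11 D1Tom classes (x axis); blue circles are control libraries, red triangles cKO libraries and bars the mean of 4. Grik3 lies between 106 and 131 CPM in layer 6 corticothalamic-like cells and between 2.15 and 5.72 CPM in upper layer-like cells.

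NMDA receptors need glutamate and a co-agonist, pass calcium, and join the obligatory subunit GluN1 (Grin1) with GluN2 or GluN3 subunits. Interneuron-like cells had more Grin2d and Grin3a than excitatory neuron-like cells. Grin2d, which gives slow channels with weak magnesium block, read 61.8, 45.0, 56.6 and 59.1 CPM in interneuron-like and 16.1, 16.6, 17.7 and 15.0 CPM in excitatory neuron-like cells, a log2 fold change of 1.78 (SE 0.12, adjusted p = 5.21e-07). Grin3a, a subunit that lowers calcium entry, read 209, 247, 318 and 213 CPM against 50.6, 70.1, 41.8 and 67.4 CPM, a log2 fold change of 2.15 (SE 0.16, adjusted p = 7.73e-07). Neither gene overlapped between the classes. Among interneuron-like cells Grin3a was highest in the medial class, at 626, 568, 721 and 617 CPM, above every library of every other named class, and next highest in Lamp5-led cells, at 158, 103, 209 and 144 CPM.

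Grin2b read 373, 361, 340.2 and 311 CPM in interneuron-like and 721, 692, 702 and 640.0 CPM in excitatory neuron-like cells. The libraries did not overlap, and the log2 fold change of -0.96 (adjusted p = 2.38e-07) came just short of the fold for a call. Grin2a read 93.3, 82.2, 74.4 and 50.9 CPM in interneuron-like and 73.3, 79.8, 86.3 and 60.7 CPM in excitatory neuron-like cells, with overlapping ranges and a log2 fold change of 0.05, which became -0.07 without control 1. Grin1 was not called between them either (log2 fold change -0.19).

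The glial and Cajal-Retzius-like classes held little of the main NMDA subunits. In astrocyte-like cells Grin2a read 3.36, 6.26, 4.95 and 5.40 CPM, a log2 fold change of -3.89 (SE 0.18, adjusted p = 4.09e-06). Grin2b read 35.2, 79.0, 58.2 and 67.1 CPM there, a log2 fold change of -3.50 (SE 0.21, adjusted p = 6.50e-06), and Grin1 and Grin2d were lower too (log2 fold changes -2.73 and -2.19). These ranges lay clear of the excitatory ones. Oligodendrocyte precursor-like cells read 4.57, 17.5, 5.89 and 7.47 CPM for Grin2a, a log2 fold change of -3.09 (SE 0.31, adjusted p = 4.44e-04). Their Grin2b read 59.4, 219.6, 77.7 and 121 CPM, a log2 fold change of -2.68 (SE 0.35, adjusted p = 7.16e-04), and Grin1 was lower (log2 fold change -1.51). The control 2 and cKO 2 values of Grin2b stood above those of the libraries numbered 1. Cajal-Retzius-like cells read 7.23, 25.2, 0 and 11.7 CPM for Grin2a, a log2 fold change of -2.61 (SE 0.43, adjusted p = 0.00184). The count of 0 in cKO 1, from 38 cells, allows up to 4.53 CPM (3 counts, counting error only, each count taken as 1 molecule). Their Grin2b read 47.0, 229.6, 18.1 and 112 CPM, a log2 fold change of -2.99 (SE 0.45, adjusted p = 0.00126), with the same split between the libraries numbered 1 and 2. Endothelial-like Grin2b split likewise (10.1, 42.9, 14.4 and 49.8 CPM).

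Grin3a alone among the NMDA genes tested was called higher in glia. It read 100.2, 171, 123 and 118 CPM in astrocyte-like cells, a log2 fold change of 1.24 (SE 0.13, adjusted p = 6.64e-05). In oligodendrocyte precursor-like cells it read 158, 109, 149 and 99.5 CPM, a log2 fold change of 1.18 (SE 0.20, adjusted p = 0.00201), or 0.98 without cKO 1. Every glial library of both classes exceeded every excitatory one. Layer 6 corticothalamic-like and upper layer-like cells showed no NMDA call, with log2 fold changes of -0.96 for Grin2a and -0.43 for Grin2b. The delta receptor gene Grid1, for a synaptic organiser related to glutamate channels, was called in none of the 5 contrasts. It had its highest mean in oligodendrocyte precursor-like cells, 45.3, 23, 38.3 and 27.7 CPM.

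Metabotropic glutamate receptors fall into a group that raises calcium, with Grm5 in it, and groups that lower cyclic AMP (Grm2 and Grm3, and Grm4, Grm6, Grm7 and Grm8). Interneuron-like cells had less Grm2, Grm7 and Grm8 than excitatory neuron-like cells. Grm2 read 2.67, 2.74, 2.24 and 5.99 CPM in interneuron-like and 13.0, 14.3, 17.0 and 12.5 CPM in excitatory neuron-like cells, a log2 fold change of -2.19 (SE 0.28, adjusted p = 6.64e-05). Grm7, a presynaptic receptor, read 14.4, 19.6, 23 and 21.7 CPM against 57.7, 62.0, 59.2 and 52.0 CPM, a log2 fold change of -1.56 (SE 0.14, adjusted p = 2.86e-06). Both genes had separate ranges. Grm8 read 4.54, 7.05, 8.95 and 1.5 CPM against 13.0, 11.5, 15.1 and 11.7 CPM, a log2 fold change of -1.12 (SE 0.27, adjusted p = 0.00479). Grm4 read 11, 7.83, 13.1 and 8.23 CPM against 4.73, 5.52, 4.92 and 5.67 CPM, a log2 fold change of 1.01 (SE 0.25, adjusted p = 0.0064). The last 2 calls rested on values close to the fold for a call: Grm8 was at -0.96 without control 1 and -0.95 without cKO 2, and Grm4 at 0.93 without control 1, 0.85 without cKO 1 and 0.99 by DESeq2.

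Grm3, which astrocytes are known to carry, read 248, 168, 204 and 197 CPM in astrocyte-like cells and 59.8, 60.6, 53.5 and 69.0 CPM in excitatory neuron-like cells, a log2 fold change of 1.82 (SE 0.13, adjusted p = 1.17e-05). Its astrocyte-like range lay above that of every other named class, the next being dividing-like cells at 129 ± 7.66 CPM. Grm7 read 2.10, 7.75, 2.97 and 4.38 CPM in astrocyte-like cells, a log2 fold change of -3.81 (SE 0.27, adjusted p = 1.01e-05), and Grm2, Grm4 and Grm8 were also called lower (log2 fold changes -3.33, -2.24 and -3.19). Grm5 was lower by less than the fold for a call, at 269.6, 237, 291 and 236 CPM against 390.2, 427, 405 and 398 CPM (log2 fold change -0.57). Oligodendrocyte precursor-like cells read 1.52, 4.37, 1.84 and 3.47 CPM for Grm2, a log2 fold change of -2.27 (SE 0.33, adjusted p = 0.00108), and Grm7 and Grm8 were lower (-2.24 and -2.12 on the log2 scale). In Cajal-Retzius-like cells Grm5 read 32.5, 145, 27.2 and 121 CPM, a log2 fold change of -2.43 (SE 0.36, adjusted p = 0.00109), again with the libraries numbered 1 lowest. Grm2, Grm3, Grm7 and Grm8 were called lower there as well (-1.35, -1.02, -2.05 and -1.98). Of these, Grm2 missed the threshold without control 2 (0.0673), cKO 1 (0.0854) or cKO 2 (0.0781) as adjusted p, and Grm3 without control 1 (adjusted p = 0.0795) or cKO 1 (adjusted p = 0.166).

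Layer 6 corticothalamic-like cells had more Grm8 and Grm3, and less Grm2, than upper layer-like cells. Grm8 read 21.8, 14.7, 30.3 and 13.3 CPM against 2.07, 6.16, 3.87 and 2.29 CPM, a log2 fold change of 2.36 (SE 0.36, adjusted p = 5.49e-05). Grm3 read 103, 95.5, 72.3 and 103 CPM against 33.3, 28.3, 33.5 and 49.2 CPM, a log2 fold change of 1.36 (SE 0.15, adjusted p = 1.22e-06). Both genes were separate between the classes. Grm2 read 5.75, 9.97, 1.95 and 9.22 CPM against 12.2, 12.8, 12.9 and 14.9 CPM, a log2 fold change of -1.04 (SE 0.33, adjusted p = 0.0223), and missed the threshold by DESeq2 (adjusted p = 0.128) and without control 1, cKO 1 or cKO 2 (adjusted p = 0.0669, 0.0677 and 0.0537).

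Most GABA-A subunit genes lie in groups, by the RefSeq annotation of GRCm38.p6. Gabrg1, Gabra2, Gabra4 and Gabrb1 span chromosome 5 from 70751047 to 72149572, and Gabre and Gabra3 lie on chromosome X from 72256926 to 72656919. In astrocyte-like cells the 4 genes of chromosome 5 held levels near or above the excitatory ones, which was noticed after the values were seen and was not tested. Below are the 250 bases before a start site of 4 genes, as the RefSeq table gives it, to set genes called higher in glia (Gabrg1 and Grm3) beside a GABA-A gene called lower (Gabra5) and the AMPA gene called higher in interneuron-like and Cajal-Retzius-like cells (Gria4).
Gabrg1, chr5:70842618-70842867, minus strand: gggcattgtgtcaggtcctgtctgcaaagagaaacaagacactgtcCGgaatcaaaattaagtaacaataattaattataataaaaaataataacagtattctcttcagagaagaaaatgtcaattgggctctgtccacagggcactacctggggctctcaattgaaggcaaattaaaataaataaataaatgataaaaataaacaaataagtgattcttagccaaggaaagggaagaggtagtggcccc
Grm3, chr5:9725353-9725602, minus strand: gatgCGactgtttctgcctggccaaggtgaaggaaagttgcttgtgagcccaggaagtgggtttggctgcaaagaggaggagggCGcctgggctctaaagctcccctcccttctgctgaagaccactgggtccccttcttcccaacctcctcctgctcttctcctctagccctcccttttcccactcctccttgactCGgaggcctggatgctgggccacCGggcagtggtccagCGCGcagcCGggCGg
Gabra5, chr7:57510060-57510309, minus strand: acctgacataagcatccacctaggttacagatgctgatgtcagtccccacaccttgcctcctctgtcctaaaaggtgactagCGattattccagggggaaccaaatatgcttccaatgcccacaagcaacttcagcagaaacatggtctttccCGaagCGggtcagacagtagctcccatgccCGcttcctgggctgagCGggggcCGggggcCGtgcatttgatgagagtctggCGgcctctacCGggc
Gria4, chr9:4796235-4796484, minus strand: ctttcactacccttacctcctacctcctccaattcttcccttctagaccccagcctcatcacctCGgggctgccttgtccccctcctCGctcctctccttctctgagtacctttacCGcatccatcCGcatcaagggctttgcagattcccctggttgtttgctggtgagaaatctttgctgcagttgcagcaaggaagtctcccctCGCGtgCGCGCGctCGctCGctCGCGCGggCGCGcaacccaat
The windows of Gabrg1, Grm3 and Gria4 lie before the whole annotated gene, while the start used for Gabra5 lies inside its gene, which spans 57407669 to 57591016. Capitals mark CG dinucleotides, the sites of DNA methylation, of which the 4 windows hold 1, 8, 9 and 16 in the order printed. The Gabrg1 window, at 35.6% G and C, has few of them, and 18.8% of 32851 windows of the same length in the table have as many or fewer; the median window has 6 and is 52.4% G and C. Windows were found for 27 of the 42 receptor genes. The letters GGGCGG, the GC box, searched like the motifs below on both strands, occur in the Grm3 window and in 32.7% of all windows. CATTGT, a motif of SOX factors, occurs in the Gabrg1 window and in 10.7% of all windows. TGTTTAC, a forkhead motif like that of Foxp2, is in 3.17% of all windows and in none of the 4. A match is a run of letters and no measured site.

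The gamma 1 subunit gene Gabrg1 was called higher in both glial classes. It read 95.8, 90.6, 85.7 and 77.2 CPM in astrocyte-like cells and 13.4, 19.6, 14 and 29.1 CPM in excitatory neuron-like cells, a log2 fold change of 2.36 (SE 0.22, adjusted p = 3.12e-05). Oligodendrocyte precursor-like cells read 60.2, 60.1, 77.3 and 56.8 CPM, a log2 fold change of 1.81 (SE 0.20, adjusted p = 4.87e-04). All 8 glial values lay above the excitatory ones. Gabra2 read 55.2, 56.6, 90.4 and 59.0 CPM in astrocyte-like and 58.4, 71.0, 72.5 and 63.7 CPM in excitatory neuron-like cells, a difference of 0.03 that turned to -0.11 without cKO 1. Gabra4 and Gabrb1, its neighbours on chromosome 5, were not called in that contrast either (log2 fold changes -0.09 and -0.33). Gabra5, an alpha subunit of tonic inhibition, read 11.3, 20.0, 15.4 and 21.6 CPM in astrocyte-like and 218, 198, 254 and 204 CPM in excitatory neuron-like cells, a log2 fold change of -3.65 (SE 0.20, adjusted p = 4.94e-06). Its astrocyte-like level of 17.1 ± 4.64 CPM lay between those of endothelial-like (8.22 ± 4.16 CPM) and microglia-like cells (28.7 ± 38.2 CPM). Gabra3, Gabrb2 and Gabrd were called lower too (-3.22, -1.99 and -2.18 on the log2 scale). Gabre, for the epsilon subunit, was called higher in astrocyte-like cells from few counts, 33 against 3, at 2.66, 1.79, 1.73 and 0.34 CPM against 0, 0.21, 0 and 0 CPM. A count of 0 in excitatory neuron-like cells allows up to 0.218 to 0.607 CPM, depending on the library. The ratio of its summed CPM was 26.0, with bounds of 8.14 and 132 (95% exact interval, counting error only, each count taken as 1 molecule).

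Oligodendrocyte precursor-like cells read 26.7, 62.4, 39.0 and 48.3 CPM for Gabra5, a log2 fold change of -2.33 (SE 0.26, adjusted p = 4.87e-04). Gabra2 read 37.3, 53.1, 44.6 and 43.8 CPM there and was not called (log2 fold change -0.56). Gabra4, Gabrb1, Gabrg3 and Gabrd were lower (-1.20, -1.06, -1.35 and -1.82). Without control 1, Gabra4 and Gabrb1 were at -0.997 and -0.90, short of the fold for a call. In Cajal-Retzius-like cells Gabra5 read 12.1, 49.5, 3.02 and 32.6 CPM, a log2 fold change of -3.10 (SE 0.43, adjusted p = 7.97e-04). Gabra2 read 102, 80.2, 55.9 and 98.9 CPM and was not called (log2 fold change 0.41). Both Gabra5 values of the libraries numbered 1 were the lowest of the 4. Gabra3, Gabra4 and Gabrb1 were lower as well (-1.80, -1.65 and -1.89).

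Between the neuron classes, interneuron-like cells had less Gabra5 and more Gabrd. Gabra5 read 73.8, 88.1, 81.1 and 98.8 CPM against 218, 198, 254 and 204 CPM, a log2 fold change of -1.34 (SE 0.11, adjusted p = 1.39e-06). Gabrd, for the delta subunit of receptors outside synapses, read 11, 4.31, 5.43 and 9.73 CPM against 2.69, 2.31, 3.12 and 3.64 CPM, a log2 fold change of 1.37 (SE 0.32, adjusted p = 0.00469). Neither overlapped. Gabra2 at 102, 92.8, 129 and 86.1 CPM (log2 fold change 0.66) lay above the excitatory libraries without reaching the fold for a call. In layer 6 corticothalamic-like cells Gabra2 read 18.5, 26.3, 45.9 and 27.7 CPM against 72.3, 83.5, 94.1 and 96.1 CPM in upper layer-like cells, a log2 fold change of -1.70 (SE 0.16, adjusted p = 1.81e-07). Gabra4 read 23.4, 37.3, 37.1 and 30.7 CPM against 62.6, 70.7, 83.8 and 70.9 CPM, a log2 fold change of -1.26 (SE 0.15, adjusted p = 2.94e-06), or -0.56 with finer clustering. Both genes were lower in every layer 6 library than in any upper layer one. Gabrd read 7.39, 5.77, 2.93 and 4.10 CPM against 1.13, 1.23, 1.72 and 4.57 CPM, a log2 fold change of 1.60 (SE 0.58, adjusted p = 0.0457), with overlapping ranges and no call by DESeq2 (adjusted p = 0.284) or without a filter on low counts (adjusted p = 0.0595). The GABA-B subunits were called rarely: Gabbr2 was lower in astrocyte-like and Cajal-Retzius-like cells (log2 fold changes -1.10 and -1.70), and Gabbr1 was called in none of the 5 contrasts, with 436 ± 80.2 CPM in astrocyte-like and 404 ± 37.1 CPM in layer 5 pyramidal tract-like cells.

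Ratios of paired subunits within a class do not depend on its other genes. Grin2a made up 24.9 ± 4.21% of the Grin2a and Grin2b counts in Lamp5-led interneuron-like cells, 10.8 ± 1.05% in other excitatory-like, 6.86 ± 1.17% in layer 6 corticothalamic-like and 6.85 ± 0.71% in oligodendrocyte precursor-like cells. In all 13 groups of D1Tom cells with enough counts, some of which contain others, Grin2b had more counts than Grin2a in every library. Grin2b in oligodendrocyte precursor-like and astrocyte-like cells lay near the levels read above as background, so their ratios may be those of background. The log2 ratio of Gria2 to Gria1 counts stood at 3.12 ± 0.05 in excitatory neuron-like cells joined and 1.21 ± 0.43 in interneuron-like cells joined. In medial interneuron-like cells the libraries ran from -0.27 in control 1 to 1.95 in cKO 2. These ratios are descriptions with no test, and transcript length and the 3' end captured bear on their size.

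**Figure D4:**
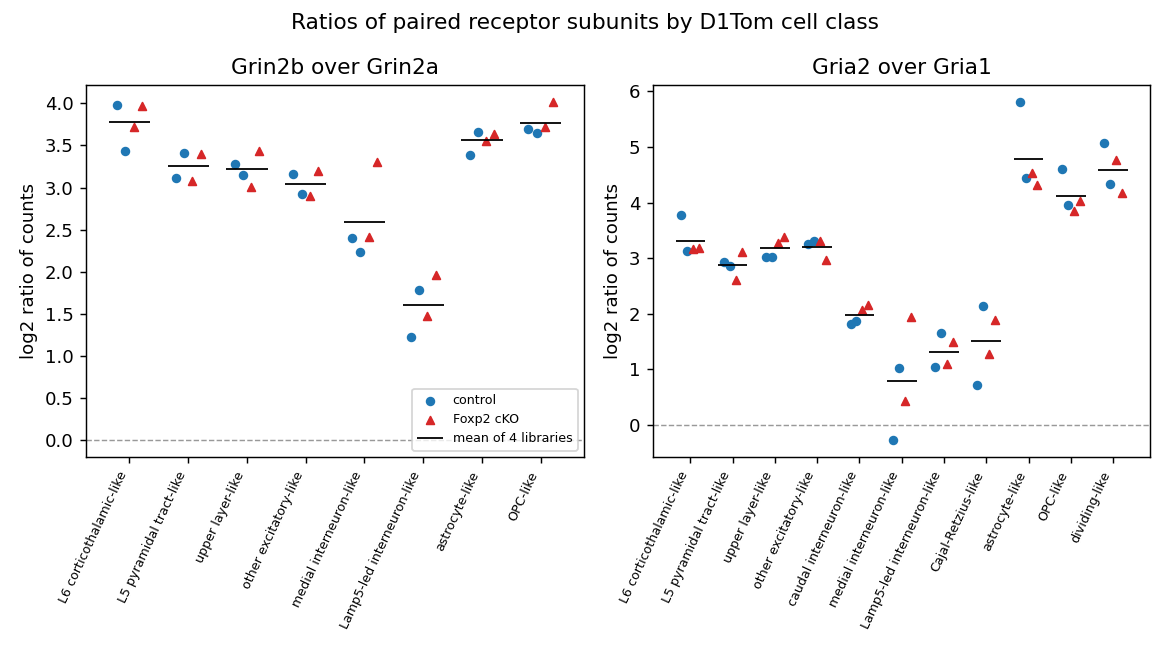
Log2 ratio of counts (y axis) of Grin2b over Grin2a and Gria2 over Gria1 in D1Tom classes with at least 10 counts of each gene in every library (x axis); blue circles are control libraries, red triangles cKO libraries, bars the mean of 4. The Gria2 to Gria1 ratio in medial interneuron-like cells spreads from -0.27 to 1.95, more widely than in the other neuron-like classes drawn.

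Other genes of the 2 transmitter systems were counted from fixed lists, by the same call rule, leaving out those used as cell type markers. A count is to be read against the share of all genes called in the same contrast, given above: 1 of 7 against 10.6% in interneuron-like cells, or 1 of 18 higher against 13.7% in oligodendrocyte precursor-like cells, is near that share and no result about its list. Of 15 auxiliary genes of AMPA and kainate receptors, 4 were higher and 1 lower in interneuron-like than in excitatory neuron-like cells, among them Cacng2 (log2 fold change 1.32), which brings AMPA receptors to the membrane, Neto1 (1.07), a kainate receptor partner, and Cnih3 (-1.70). Of 18 postsynaptic scaffold genes 0 were called in that contrast. Of 7 genes of transport and synthesis not used as markers, 1 was higher there. Kctd12, a GABA-B auxiliary subunit gene, was higher (1.69), 1 of 8 GABA receptor partners. In astrocyte-like cells 0 auxiliary genes were higher and 9 lower, and 1 scaffold gene was higher (Homer3, 2.86) and 11 lower. Of 7 transport and synthesis genes, 4 were higher there, with Glul, the glutamine synthetase gene, at 3.44, and 3 were lower. There 3 of 8 GABA receptor partners were lower, 1 of 2 chloride cotransporters was lower, and 4 of 4 related subunits outside the rule were lower, with Gabrq at -5.09. Oligodendrocyte precursor-like cells had 2 auxiliary genes higher and 4 lower, 1 scaffold gene higher and 4 lower, 3 of 7 transport and synthesis genes higher and 1 lower, 2 of 4 related subunits lower and 0 of 8 GABA receptor partners called. Their Slc12a5, for the chloride exporter KCC2, was lower (-2.29), 1 of 2 cotransporters. In Cajal-Retzius-like cells 1 auxiliary gene was higher (Cacng5, 3.60) and 7 lower, 2 scaffold genes were higher and 6 lower, 1 transport gene, 1 cotransporter and 2 of 3 related subunits were lower, and Kctd8, another GABA-B auxiliary gene, was higher (3.31). Layer 6 corticothalamic-like against upper layer-like cells had 4 auxiliary genes higher (Gsg1l and, at 1.33, Neto2 among them) and 1 lower (Cacng3, -2.06). Kctd8 was 1 of 2 GABA receptor partners higher there (4.93), Slc1a2, for the glutamate transporter GLT1, 1 of 7 transport genes (2.47), 2 of 4 related subunits were higher, and 0 scaffold genes and 0 cotransporters were called.

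The study compared Foxp2 cKO with control cells. Over all D1Tom cells, 0 of 39 receptor genes tested passed an adjusted p under 0.05 by edgeR's quasi-likelihood test (n = 2 libraries per genotype), and 0% of 14508 genes did. At an unadjusted p under 0.05 there were 2 receptor genes, against 2.21% of all genes, and DESeq2 called 1 receptor gene among 24 genes. With the preparation day as a block, 0 receptor genes and 1 gene in all were called. Gabra6, Grin3b and Grm6 had too few counts to test. Libraries of the 2 genotypes did not overlap for 14 of the 39 receptor genes (35.9%), against 23.4% of all genes. The median log2 fold change was -0.04 for the receptor genes and -0.01 for all genes, and single genes ran from -0.49 to 3.65.

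Grin2c, the NMDA subunit gene of cerebellum and glia, had the smallest p. It read 0.16 and 0.11 CPM in control libraries against 1.86 and 1.54 CPM in the cKO, a log2 fold change of 3.65 (SE 0.49, adjusted p = 0.998 by edgeR). DESeq2 called it (log2 fold change 3.68, adjusted p = 0.0115). These values rest on 6 and 4 counts in 5 and 3 control cells, and on 55 and 42 counts in 31 and 41 cKO cells. Of the cKO counts, 25 of cKO 1 lay in astrocyte-like and 20 in neuroblast-like cells, and those of cKO 2 in an unnamed cluster led by mt-Atp8, Slc7a11 and Gja1 (15) and in neuroblast-like cells (11). Neuroblast-like cells were 0.905% and 1.0% of control cells and 7.54% and 6.2% of cKO cells, and their part in the Grin2c difference was not tested.

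The next in order of p included Grin2b, Grm7 and Grin2a, all at lower values in cKO libraries. Grin2b read 411 and 393 CPM in control libraries against 334 and 232 CPM in the cKO (log2 fold change -0.46, SE 0.18, adjusted p = 0.998, as for the next 2). Grin2a read 51.5 and 47.9 CPM against 45.1 and 23.8 CPM (-0.49, SE 0.25). Grm7 read 33.8 and 34.2 CPM against 30.6 and 19.8 CPM (-0.39, SE 0.18). In all 3 genes cKO 2, the male library, was the lowest. Without cKO 2 the differences were -0.31 for Grin2b, -0.18 for Grin2a and -0.20 for Grm7, and without cKO 1 they were -0.62, -0.89 and -0.61. Neuron-like cells, which join the excitatory, interneuron, Cajal-Retzius and neuroblast-like classes, made up 31.1% and 42.8% of control cells. They were 31.8% and 21.9% of cKO cells, lowest in cKO 2. An alternative set for this purpose summed over neuron-like cells only. The differences were then -0.41, -0.46 and -0.45 in the same order, with adjusted p from 0.798 to 0.828 by edgeR. Of the neuron-like cells, 29 of 997 and 24 of 1025 were neuroblast-like in control libraries, and 212 of 895 and 191 of 675 in cKO libraries. The mix of cells thus still differed between the genotypes in that sum, and its part was not tested. Sex and genotype were not balanced over these 4 libraries, since the only male library was a cKO library. Each day of preparation held a control and a cKO library.

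**Figure D5:**
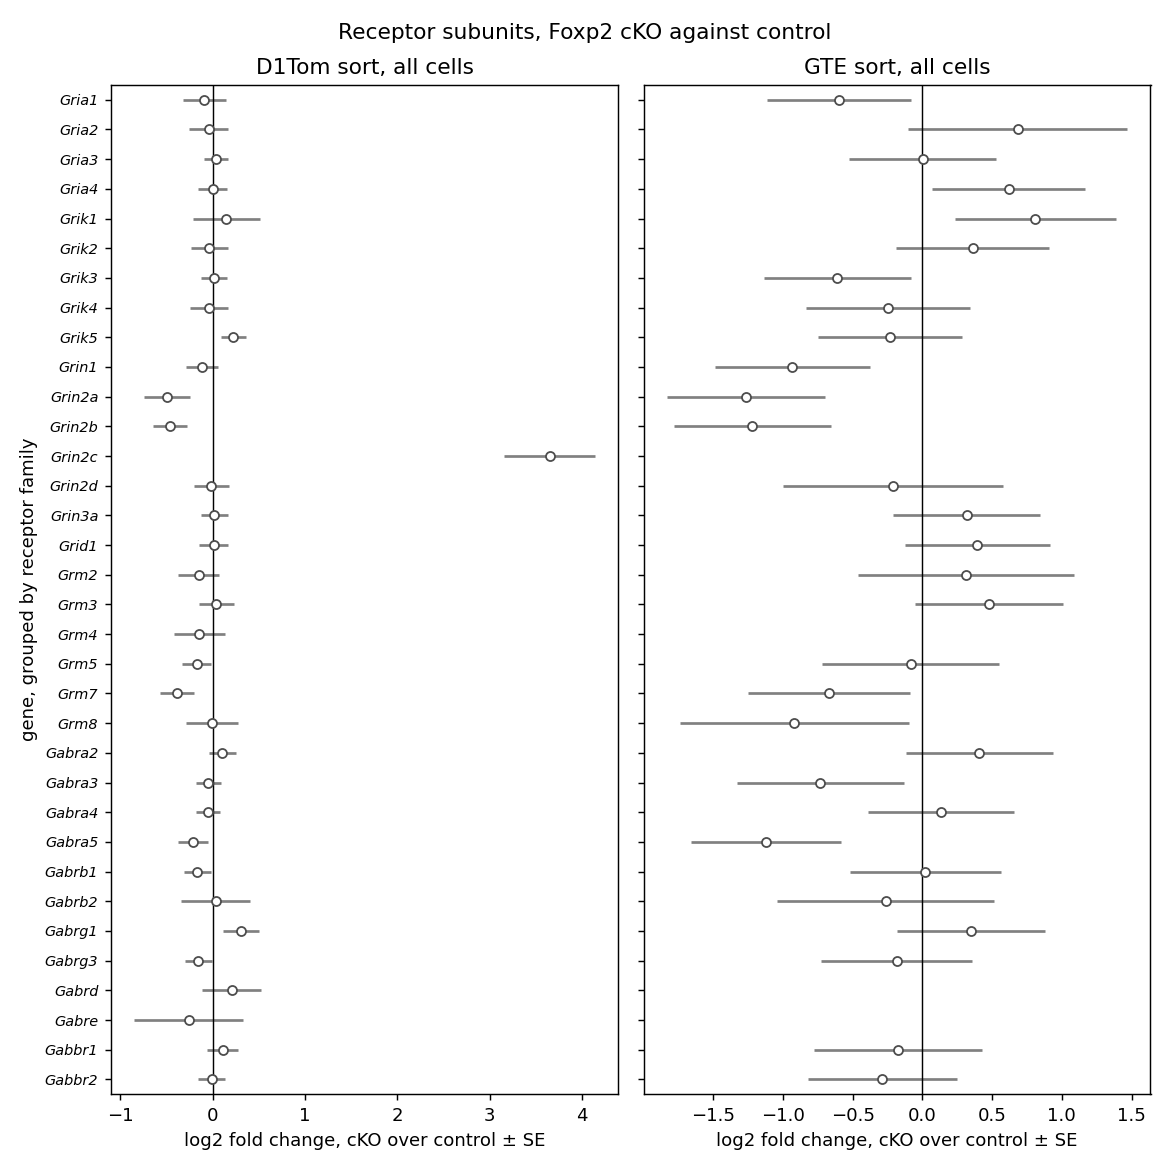
Log2 fold change ± SE (x axis) of cKO over control in receptor genes tested (y axis, grouped by family), over all cells of the D1Tom sort (left, 34 genes) and the GTE sort (right, 30 genes), from edgeR fits with 2 libraries per genotype. No gene passed an adjusted p under 0.05; Grin2c in D1Tom stands at 3.65 and the GTE errors are wider, with a median SE of 0.55 against 0.18.

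In the GTE sort 0 of 35 receptor genes tested passed, against 0.0332% of 12042 genes (4 genes), by edgeR's quasi-likelihood test. There were 5 receptor genes at an unadjusted p under 0.05, against 5.22% of all genes, and DESeq2 called 0 receptor genes among 2 genes. Genotypes did not overlap for 7 receptor genes (20.0%), against 26.2% of all genes, and the median log2 fold change was -0.21 against -0.05 for all genes. Of those at an unadjusted p under 0.05, Grin2a read 8.86 and 24.6 CPM in control libraries against 7.10 and 9.19 CPM in the cKO (log2 fold change -1.27, adjusted p = 0.896, or -0.60 without control 2, -0.79 without cKO 1 and -1.90 without cKO 2). Control 2 was high and the other 3 libraries lay close together. Grin2b read 98.0 and 151 CPM against 53.6 and 74.6 CPM (-1.22, or -0.71 without cKO 1 and -1.94 without cKO 2), and Gabra5 41.0 and 66.2 CPM against 14.8 and 40.5 CPM (-1.12, or -0.38 without cKO 1 and -2.58 without cKO 2). Control 2 also had the most cells in clusters named neuron-like, 85 against 6 to 31 in the others. The library cKO 1 had the most astrocyte-like cells, 35.9% against 0.514% to 1.06%, shares that depend on the clustering as given above. The part of these cells in the differences was not tested.

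A fit over all 8 libraries asked whether the genotype difference differed between the sorts. It called 0 of 39 receptor genes and 0% of 14026 genes by edgeR, with 2 receptor genes at an unadjusted p under 0.05 against 3.22% of all genes, and DESeq2 called 0 receptor genes among 5 genes. The smallest p was that of Grin2c (difference of log2 fold changes, GTE minus D1Tom, -3.98, SE 1.25), and Grin1 (-0.81) and Gabrd (-1.57) were among the 5 smallest, each with an adjusted p of 0.941. Set against each other, the control libraries of the 2 sorts gave 0 calls among 38 receptor genes and 1.42% of 13823 genes by edgeR, with 13 receptor genes at an unadjusted p under 0.05 against 23.8% of all genes. DESeq2 called 4. Grin1 read 75.3 and 64.7 CPM in D1Tom and 11.2 and 19.7 CPM in GTE (log2 fold change 1.56, SE 0.33, adjusted p = 0.0646). Grin2d (1.90), Grik1 (1.37), Gabrg1 (-1.23) and Grin2c (-3.49) followed, with adjusted p from 0.0709 to 0.105. Sort, table and the mix of cells differ together there and cannot be told apart.

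Within single classes, 20 fits (13 in D1Tom and 7 in GTE) tested receptor genes 562 times and called 0 by edgeR's quasi-likelihood test, and 1 gene in all was called, in the unnamed D1Tom cluster of 1080 cells (0.0104% of 9620 genes there, 0% in each of the other 19 fits). At an unadjusted p under 0.05 there were 15 of the 562 (2.67%), against 1.88% of all tests. Grik1 in upper layer-like cells had the smallest p: 3.95 and 4.68 CPM in control libraries against 18.9 and 10.3 CPM in the cKO (log2 fold change 1.81, SE 0.42, adjusted p = 1.00). Both cKO libraries, with 90 and 52 such cells, lay above both controls, with 234 and 226, and fits with the shared replicate number as a block or without a filter on low counts called it (adjusted p = 0.0156 and 0.0177). The block gave 2 receptor gene calls over these fits, this one and a lower Grin2b in Cajal-Retzius-like cells, among 452 calls in all. Gria2 in an unnamed GTE cluster led by Pdzph1 read 43.0 and 66.7 CPM against 1181 and 77.6 CPM. In haemoglobin-rich GTE cells Gria2 read 59.4 and 102 CPM against 2237 and 42.7 CPM. Both GTE values rest on cKO 1, and without it the log2 fold changes of 2.89 and 3.03 became 0.65 and -0.65. Without cKO 2 both were called (adjusted p = 2.95e-06 and 6.26e-14, in a fit that assumes the lone cKO library varies like the controls). Grin3a in haemoglobin-rich D1Tom cells read 22.2 and 17.8 CPM against 41.3 and 31.2 CPM (0.83, adjusted p = 1.00). In layer 6 corticothalamic-like cells, where Foxp2 was lower in the cKO, 0 of 36 receptor genes were called, 1 had an unadjusted p under 0.05 against 3.03% of all genes, and the median log2 fold change was -0.07 against 0.00 for all genes. None of the other pathway genes in the lists was called in a genotype comparison over all cells.

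The oligodendrocyte precursor-like cells of the GTE sort, between 135 and 421 in a library, offered a second set of libraries for that class. There Gria2 read 731, 1414, 1517 and 1157 CPM, lowest in control 1, and Gria3 209.5, 258, 221 and 141 CPM, lowest in cKO 2. Grin3a read 90.5, 160.0, 162 and 186 CPM and Gabrg1 54.8, 107, 116 and 68.2 CPM, each lowest in control 1. The log2 ratio of Gria2 to Gria1 was 4.78 ± 0.22 in them and 4.11 ± 0.34 in the D1Tom class. The tables were processed separately, so these levels are set side by side without a test.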

How the data were processed

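The authors deposited 2 tables of raw counts per gene and cell, one for each sort, and tables that map every cell to its library (columns of no mapped sample: 0). Libraries were made with 10x 3' chemistry, per the labels' protocols. The submitters' processing notes name Cell Ranger 2.1.1, UMI-tools 0.5.4, STAR 2.5.2b, Subread 1.6.2 with featureCounts and bcl2fastq 2.17.1.14, and the builds mm10 and GRCm38.p6, without saying which table each served. The receptor genes and gene lists were chosen with earlier results of these data known.

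Cells under 500 counts were left out of clustering (0 in D1Tom and 143 in GTE). Clustering used scanpy 1.11.5 in Python 3.11.15, with 2000 variable genes, 30 principal components and 20 neighbours, and left the receptor genes out. Before the principal components, each gene was scaled within each library. A cluster was named from 22 marker lists if at least 3 markers of a list, and the median of that list, were at least 2-fold higher. A layer name also needed a marker among the leading genes of the cluster. Where several lists passed, the one with the most markers among the leading genes was taken. Scrublet's automatic threshold marked between 0 and 5 cells in a library and was not used. Instead an alternative left out the cells with the highest scores, 17 to 121 in a library.

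Counts were summed per library, or per library and class where at least 30 cells were in every library, and tested with edgeR 4.0.16 (limma 3.58.1, R 4.3.3) after its filter on low counts and TMM scaling, over all genes with Benjamini-Hochberg adjustment. DESeq2 1.42.0 was an alternative, as were no low-count filter, a replicate block, finer clustering and leaving out each library. On simulated counts for 14508 genes of the D1Tom genotype comparison, 44% of 100 genes changed 2-fold and 91% of 100 changed 4-fold were called. The changed genes were drawn only from those above a minimum mean count, so the shares do not cover genes of few counts. The simulation held no shared preparation day and no shift in the mix of cells. For the GTE comparison, on 12042 genes, these shares were 0% and 25%, and for interneuron-like against excitatory neuron-like cells, on 12213 genes, 41% and 100%. Same-numbered D1Tom libraries shared a preparation day, per the labels, and their deviations from the group means correlated at 0.548 across genes.

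Per comparison, values by library are given for receptor genes past the call rule, where more than 10 passed for the 4 largest changes each way and Grin2a, Grin2b, Gabra2, Gria1 and Gria2, and where none passed for the 5 with the smallest p. Other receptor genes are given by level, fold change or count. Some genes are not reported here by name or drawn, and counts over all receptor genes include them. Promoter windows are RefSeq sequence of GRCm38.p6, and the count tables hold no coordinates. Intervals cover counting error only.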

Additional observations from a re-analysis of the deposited data

How the results depend on the processing

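In the class contrasts 74 of 98 named pairs of gene and contrast kept their call and direction under every alternative run. Gabra2 in astrocyte-like cells turned to -0.16 with control libraries only and -0.072 with finer clustering, and ran from -0.11 to 0.137 when one library was left out (-0.11 without cKO 1). Leaving out one library gave -0.065 (without control 1) to 0.136 for Grin2a in interneuron-like cells, and -0.653 (without cKO 1) to 3.898 for Gria2 in GTE haemoglobin-rich cells. Control libraries alone gave 1373 called genes in the Cajal-Retzius-like contrast, against 2318. For genotype in D1Tom, DESeq2 called 1 receptor gene and 24 genes, the replicate block 1 gene, and leaving out one library 0 to 6 genes. Within classes, receptor calls were 1 without the filter on low counts, 2 with the replicate block and 0 to 12 when one library was left out (12 without GTE cKO 2, 1 without D1Tom control 2). Calls over all genes there were 23 by DESeq2, 314 without the filter, 452 with the replicate block, 6 without doublet candidates and 21 to 1851 without one library. In GTE all cells 2, 18, 0 and 1 genes were called by DESeq2, without the filter, with the replicate block and without doublet candidates, and 1 to 27 without one library. Same-numbered GTE libraries deviated oppositely (correlation -0.352 across genes), and a block with crossed numbers, chosen after seeing the data, called 24 genes and 0 receptor genes. DESeq2 called 5 genes in the interaction, and 4 receptor genes and 1319 genes between the sorts, where leaving out one library gave 0 to 18 receptor calls (6 without GTE control 1, 18 without GTE control 2) and 149 to 3253 calls in all. The causes were not tested. Neuron-like GTE cells and GTE class contrasts had too few cells to fit. GTE libraries had a median of 1086 to 2982 counts per cell. Of 4-fold changes simulated at their spread, in genes above a minimum mean count, 25% were found.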
